A study of Mus musculus with 28 samples.

Results

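The core genes of the circadian clock were followed in nascent RNA from mouse forebrain cultures whose electrical activity was blocked or raised, with and without an shRNA against Rai1. The 10 members are Clock, Arntl, Per1, Per2, Per3, Cry1, Cry2, Nr1d1, Nr1d2 and Dbp. They were chosen by name, with earlier results of these data known. All 10 were found among the 22919 genes listed wherever gene names were given. The vehicle knockdown comparison came without gene names, and there the rows of all 10 were identified by unique mean counts. Each had an adjusted p-value in all 7 tables, so none was lost to a filter on low values. The response to silencing differed between the 2 arms for Per2 and Cry1. Clock, the gene for which Rai1 is known as a regulator, was not detectably changed by the Rai1 shRNA in any treatment.

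The clock is a transcriptional feedback loop. CLOCK and ARNTL (also called BMAL1) form a heterodimer that binds E-box sequences and activates the Per and Cry genes, whose proteins return to the nucleus and repress that heterodimer. Nr1d1 and Nr1d2 encode REV-ERB nuclear receptors, which are also driven by E-boxes and repress Arntl through ROR elements. Dbp is an E-box target too, and its protein activates output genes through D-box sequences. Per1 and Per2 are also known as genes that calcium and cAMP signalling induce through CREB, which links the clock to light in the suprachiasmatic nucleus and to synaptic activity elsewhere in the brain.

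Cultures came from cortices and hippocampi of CD1 mouse embryos at embryonic day 18, with each replicate pooled from a group of embryos of matched sex ratio, and the labels give neurons, astrocytes and oligodendrocyte precursor cells as their content. Lentivirus was added on day in vitro 14 and carried either the control shRNA (the shCtrl arm) or the one targeting Rai1 (the shRai1 arm). How many hairpins were used is not given in the sources used here. Treatment on day 17 lasted 4 hours and was water as vehicle, 1 µM tetrodotoxin (TTX) or 20 µM bicuculline (BIC). TTX blocks voltage-gated sodium channels and so silences firing, and BIC blocks GABA-A receptors and raises it. Bromouridine was added at 2 mM for the last 20 minutes, and the labelled RNA was captured and sequenced (Bru-seq), so that reads report transcription in that window. Of 16 libraries, 2 came from shCtrl in vehicle (numbered 1 and 2), 2 from shCtrl in BIC (numbered 2 and 3), and 3 from each of the other 4 groups. The 12 samples of RAI1 ChIP-seq were not analysed here.

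The deposited values are summaries: 1 pooled level per condition and a modelled log2 change with its standard error (SE) per comparison, with no value per library and no depth per library. The markers fixed for neurons, astrocytes and the oligodendrocyte lineage were all above 0 in the 3 shCtrl conditions. Their summed levels ranged over 472 to 736 FPKM, 259 to 331 FPKM and 163 to 191 FPKM. Microglia markers summed to 22.1 to 31.9 FPKM, and C1qb was listed at 0 in TTX. In a mixed culture, fewer cells of a type and less RNA per cell cannot be told apart. Nascent Rai1 gave no check of the shRNA arm: its change in shRai1 against shCtrl was 0.16 (SE 0.073) in vehicle, -0.12 (SE 0.064) in TTX and 0.03 (SE 0.073) in BIC in the authors' deposited tables, and none passed. The interval listed for Rai1 also overlaps those of other listed genes. Directions between the arms therefore rest on the labels. The treatments of the shRai1 arm are those named by the comparison tables. The FPKM columns of that arm carry treatment names that go against these tables, so levels are given for shCtrl only. Which names are right was not settled here. All drug responses in shRai1 and all differences between the arms rest on those of the comparison tables. By the names of the comparison tables, Dbp changed under TTX and BIC by 0.98 and -1.97 in shRai1 and by 0.94 and -1.67 in shCtrl, and Nfil3, a clock repressor, by -1.46 and 1.77 and by -1.76 and 1.28, in the authors' deposited tables. Any exchange of the treatment names within shRai1 would reverse the sign of at least 1 of these responses of each gene.

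Levels can be compared between genes as FPKM, which divides by gene length. In shCtrl vehicle Per1, on chromosome 11 from 68912458 to 68923459 (build mm9, per the submitters' processing notes), stood highest at 112 FPKM (bounds of the deposited table, 85.3 to 139). Nr1d1, on chromosome 11 from 98629246 to 98636691, followed at 42.9 FPKM (33.0 to 52.8), and Cry2, on chromosome 2 from 92243804 to 92274226, at 31.4 FPKM (23.7 to 39.1). The bounds of Per1 did not reach those of Nr1d1, while those of Nr1d1 and Cry2 overlapped. The other 7 members lay between 6.42 and 12.1 FPKM, in the order Arntl, Per2, Dbp, Per3, Clock, Nr1d2 and Cry1, and each overlapped its neighbour. The bounds of Per1 lay above those of its paralogues Per2 (11.9 FPKM) and Per3 (8.13 FPKM), and those of Cry2 above those of Cry1 (6.42 FPKM).

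**Figure D1:**
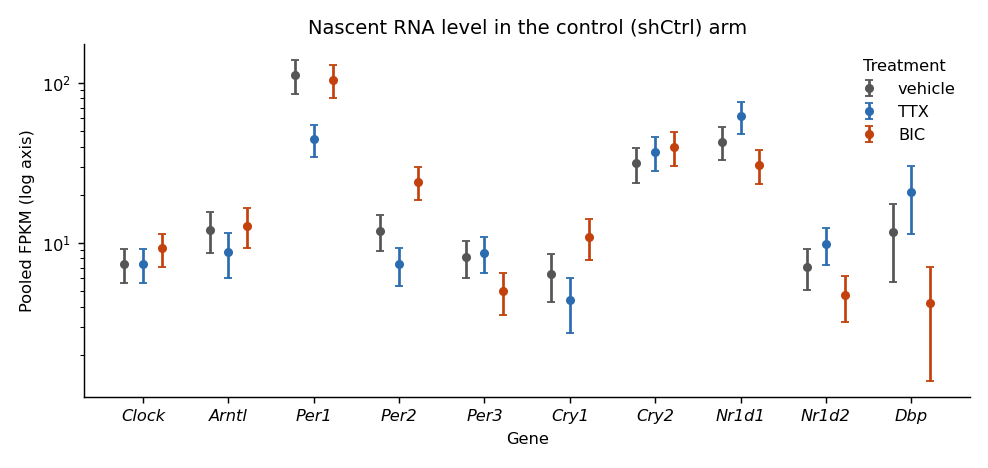
Pooled FPKM on a log axis for the 10 clock genes in the shCtrl arm, in vehicle, TTX and BIC. Points are the deposited pooled values and bars their deposited bounds. Per1 stands at 112 FPKM in vehicle and 44.5 FPKM in TTX, and Dbp moves from 20.8 FPKM in TTX to 4.23 FPKM in BIC.

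The promoters of members that fell under TTX (Per1, Cry1) and of members that rose (Per3, Nr1d1) are shown as examples that moved in opposite directions under TTX and whose windows hold a match to a searched sequence. RefSeq windows (GRCm38.p6) of 300 bases, from 250 before to 50 after an annotated start, were present for 9 of the 10 members, all but Per2. There were 13 such windows, with 3 for Clock, 2 each for Arntl and Per1 and 1 for each other member. They were searched on both strands for the E-box CACGTG, its variant CACGTT, the CRE TGACGTCA, the D-box forms TTATGTAA and TTATGCAA, and the ROR element core TAGGTCA. The E-box and its variant share 5 letters but were counted separately. For Per1 only the window that holds matches is shown. Capitals mark the matches, and each window reads 5′ to 3′ on the strand of the gene.
Per1, chr11:69098699-69098998, plus strand: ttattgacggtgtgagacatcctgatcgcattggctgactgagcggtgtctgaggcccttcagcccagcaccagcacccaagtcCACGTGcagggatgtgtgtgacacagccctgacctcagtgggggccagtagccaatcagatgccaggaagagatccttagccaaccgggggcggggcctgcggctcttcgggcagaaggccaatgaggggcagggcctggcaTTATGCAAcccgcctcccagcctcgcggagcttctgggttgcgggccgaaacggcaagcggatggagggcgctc
Cry1, chr10:85185005-85185304, minus strand: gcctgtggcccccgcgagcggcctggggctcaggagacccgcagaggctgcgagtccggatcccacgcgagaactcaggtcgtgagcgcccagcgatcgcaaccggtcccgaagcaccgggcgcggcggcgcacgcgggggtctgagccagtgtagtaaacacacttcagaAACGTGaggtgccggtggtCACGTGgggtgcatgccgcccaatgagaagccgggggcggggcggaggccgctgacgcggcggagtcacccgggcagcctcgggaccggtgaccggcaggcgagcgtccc
Per3, chr4:151044616-151044915, minus strand: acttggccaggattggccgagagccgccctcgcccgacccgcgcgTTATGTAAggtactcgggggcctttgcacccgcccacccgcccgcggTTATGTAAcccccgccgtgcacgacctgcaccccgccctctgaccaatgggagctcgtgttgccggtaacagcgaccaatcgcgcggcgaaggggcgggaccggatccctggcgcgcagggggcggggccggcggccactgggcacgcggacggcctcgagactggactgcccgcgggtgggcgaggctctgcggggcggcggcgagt
Nr1d1, chr11:98775328-98775627, minus strand: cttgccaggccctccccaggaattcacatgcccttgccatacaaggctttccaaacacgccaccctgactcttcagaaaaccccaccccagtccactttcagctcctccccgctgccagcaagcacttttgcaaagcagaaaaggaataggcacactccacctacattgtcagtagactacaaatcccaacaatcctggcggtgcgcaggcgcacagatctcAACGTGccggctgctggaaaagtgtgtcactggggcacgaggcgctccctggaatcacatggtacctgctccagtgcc

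The E-box CACGTG was found in the printed window of Per1, with its first base 166 bases before the start, and in that of Cry1, 60 bases before it. The other window of Per1 held none of the searched sequences. The E-box count and the shares below are per window. The E-box is present in 7.15% of all 32851 windows. The variant CACGTT was matched in Cry1, Cry2 and Nr1d1, and in 4.68% of all windows. Per3 held TTATGTAA at 2 places, 205 and 158 bases before its start, a sequence present in 0.938% of windows. Per1 held TTATGCAA 24 bases before its start (0.743% of windows). Arntl held TAGGTCA 30 bases after a start (2.61% of windows), and no window of these 9 members held TGACGTCA (1.79% of windows). The windows of Clock, Nr1d2 and Dbp held none of the searched sequences. These matches describe letters in short windows, and binding was not measured here.

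Silencing with TTX moved most members of the loop within 4 hours, in both directions. Per1, Per2, Cry1 and Arntl fell in shCtrl, while Dbp, Nr1d1, Per3 and Nr1d2 rose. At the threshold of 0.05 on the adjusted p, the authors' deposited table for TTX in shCtrl thus called 8 of 10 members and 26.7% of the genes that had an adjusted p. The 4 rises stand beside 11.8% of those genes called higher and the 4 falls beside 14.9% called lower. The members had mean normalized counts from 194 (Dbp) to 4161 (Arntl). The shares of all genes, here and below, were not matched for count and include genes with lower counts. In shRai1 9 of 10 members were called in the authors' deposited table (30.5% of genes), 4 higher (13.7%) and 5 lower (16.8%). The 5 falls include Cry2, whose direction is uncertain because its shCtrl levels moved against its modelled change. Cell type markers moved with TTX too: oligodendrocyte-lineage markers were 4 lower and 1 higher of 8 in shCtrl (median -0.60) and 5 higher in shRai1 (median 0.38), and astrocyte markers were 4 lower of 8 in shCtrl (median -0.23) and 2 higher and 1 lower in shRai1 (median -0.02). Of 8 neuron markers 1 was higher and 3 lower in shCtrl (median -0.15) and 2 were lower in shRai1 (median 0.0057). No microglia marker was called under TTX, where 3 of 8 had an adjusted p. Their part in the responses of the clock genes was not tested.

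Of the activators, Arntl (chromosome 7, 120350979 to 120457640) stood at 12.1 FPKM in vehicle, 8.76 FPKM in TTX and 12.8 FPKM in BIC in shCtrl. Its log2 change under TTX was -0.37 (SE 0.078, adjusted p 2.42e-05) in shCtrl and -0.42 (SE 0.068, adjusted p 2.01e-08) in shRai1 in the authors' deposited tables. Clock, on chromosome 5 from 76638893 to 76733817, stood at 7.39 FPKM in vehicle, 7.42 FPKM in TTX and 9.24 FPKM in BIC. Under silencing the log2 change of Clock was -0.0038 (SE 0.099) in the shCtrl arm and -0.0081 (SE 0.087) in the shRai1 arm, from the authors' deposited tables. Of the partners in the heterodimer, Arntl fell and Clock had no detectable change.

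Among the repressors, Per1 stood at 112 FPKM in vehicle in shCtrl, 44.5 FPKM in TTX and 105 FPKM in BIC. TTX alone took it outside the bounds of vehicle. Its transcription was 2.68-fold lower under TTX in shCtrl (log2 change -1.42, SE 0.12, adjusted p 3.69e-30) and 3.06-fold lower in shRai1 (-1.62, SE 0.11, adjusted p 9.49e-50), both from the authors' deposited tables. Per2, on chromosome 1 from 93312559 to 93355905, had 11.9 FPKM in vehicle, 7.36 FPKM in TTX and 24.1 FPKM in BIC. Its TTX change was -0.76 (SE 0.11, adjusted p 3.63e-11) in shCtrl and -1.59 (SE 0.094, adjusted p 1.08e-61) in shRai1 in the authors' deposited tables. Cry1, on chromosome 10 from 84594445 to 84647799, had 6.42 FPKM in vehicle, 4.38 FPKM in TTX and 11.0 FPKM in BIC. The authors' deposited tables gave it a TTX change of -0.51 (SE 0.10, adjusted p 6.71e-06) in shCtrl and -1.38 (SE 0.092, adjusted p 4.40e-49) in shRai1. The falls of Per2 and Cry1 were nearer to that of Per1 in shRai1 than in shCtrl, a difference between genes that was not tested.

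Per3 and Cry2 are the remaining paralogues of these families. Per3, on chromosome 4 from 150377764 to 150418774, rose under TTX by 0.44 (SE 0.12, adjusted p 0.00103) in shCtrl and 0.60 (SE 0.10, adjusted p 7.67e-08) in shRai1 in the authors' deposited tables. Its pooled level moved less, from 8.13 FPKM in vehicle to 8.71 FPKM in TTX. Cry2 had 31.4 FPKM in vehicle, 37.1 FPKM in TTX and 39.9 FPKM in BIC. In the authors' deposited tables its TTX change was -0.17 (SE 0.098, adjusted p 0.193) in shCtrl and -0.48 (SE 0.086, adjusted p 3.92e-07) in shRai1. The shCtrl levels of Cry2 moved against the sign of its modelled changes under both drugs, so its direction is uncertain. The interval listed for Cry2 overlaps that of D930015M05Rik, which had a mean normalized count of 10.2.

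The nuclear receptors and Dbp went up with silencing. Nr1d1 stood at 42.9 FPKM in vehicle, 62.4 FPKM in TTX and 30.8 FPKM in BIC in the control arm. Its TTX change was 0.70 (SE 0.22, adjusted p 0.00750) in shCtrl and 0.83 (SE 0.20, adjusted p 0.000195) in shRai1 in the authors' deposited tables. Nr1d2, on chromosome 14 from 19036570 to 19071620, had 7.09 FPKM in vehicle, 9.85 FPKM in TTX and 4.69 FPKM in BIC. It rose under TTX by 0.23 (SE 0.089, adjusted p 0.0397) in shCtrl and 0.21 (SE 0.078, adjusted p 0.0288) in shRai1 (the authors' deposited tables). The call in shCtrl was lost when the adjustment covered all genes with a p-value (adjusted p 0.0541). Dbp lies on chromosome 7, in an interval from 52960617 to 52973372 that overlaps the one listed for Sphk2. Dbp had 11.6 FPKM in vehicle, 20.8 FPKM in TTX and 4.23 FPKM in BIC. The authors' deposited tables put Dbp 1.92-fold higher under TTX in shCtrl (log2 change 0.94, SE 0.16, adjusted p 6.98e-08) and 1.98-fold higher in shRai1 (0.98, SE 0.14, adjusted p 9.15e-11). Neither TTX change of Sphk2 passed, at 0.13 (SE 0.13) and -0.01 (SE 0.12) in the same order in the authors' deposited tables.

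**Figure D2:**
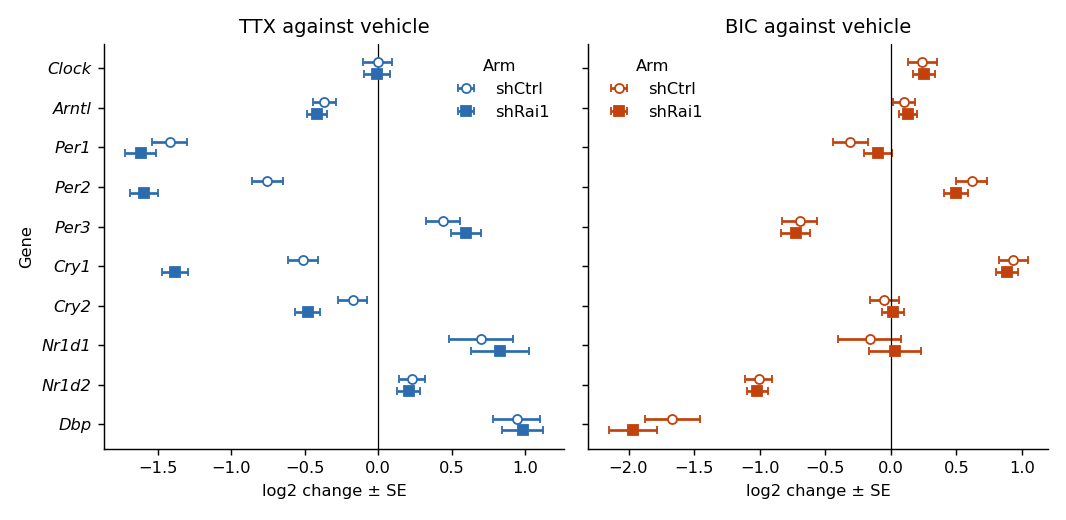
The log2 change against vehicle, with bars of 1 SE, of the 10 clock genes under TTX (left) and BIC (right). Open circles stand for shCtrl and filled squares for shRai1. Under TTX the arms lie apart for Per2 (-0.76 and -1.59) and Cry1 (-0.51 and -1.38), and under BIC they lie close together.

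Raised activity increased Cry1 and Per2 and decreased Dbp, Nr1d2 and Per3, each in the opposite direction to silencing. In the authors' deposited table for BIC in shCtrl 5 of 10 members were called (34.4% of genes), 2 of them higher (17.4% of genes) and 3 lower (17.0%). In shRai1 Clock joined the rises, which made 6 of 10 called in the authors' deposited table (42.5% of genes), 3 higher (21.3%) and 3 lower (21.3%). Per2, Per3, Cry1, Nr1d2 and Dbp were called in opposite directions under the 2 drugs in both arms. The 2 drugs share their vehicle libraries within an arm. Of 8 neuron markers 5 were higher and 2 lower under BIC in each arm (medians 0.55 in shCtrl and 0.70 in shRai1). Astrocyte markers were 1 higher and 2 lower in shCtrl (median -0.10) and 2 higher in shRai1 (median 0.03), oligodendrocyte-lineage markers 2 lower in shCtrl (median -0.26) and 1 lower in shRai1 (median 0.05), and microglia markers 2 higher in shCtrl (median 0.31) and 1 higher in shRai1 (median 0.35). Of the 8 microglia markers, 3 had an adjusted p under BIC in shCtrl and 5 in shRai1. The part of all these cell types in the clock gene responses to BIC was not tested.

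Cry1 rose under BIC by 0.93 (SE 0.11, adjusted p 4.56e-16) in shCtrl and 0.88 (SE 0.085, adjusted p 3.61e-24) in shRai1 in the authors' deposited tables. For Per2 the authors' deposited tables gave 0.62 (SE 0.12, adjusted p 1.33e-06) and 0.49 (SE 0.092, adjusted p 4.69e-07). Per1 did not rise: its changes were -0.31 (SE 0.13, adjusted p 0.0571) in shCtrl and -0.10 (SE 0.11, adjusted p 0.503) in shRai1 in the authors' deposited tables. With the adjustment limited to genes whose mean normalized count reached 50, the shCtrl value of Per1 passed (adjusted p 0.0452). Averaged over both arms Per1 fell by 0.20 (SE 0.085, adjusted p 0.0371, Wald test), a call that was lost after centring on the median gene (adjusted p 0.113). Per2, which fell with Per1 under TTX, rose under BIC.

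Dbp fell furthest under BIC. In the authors' deposited tables it was 3.17-fold lower in shCtrl (log2 change -1.67, SE 0.21, adjusted p 2.14e-14) and 3.91-fold lower in shRai1 (-1.97, SE 0.18, adjusted p 5.28e-26). Sphk2, whose interval overlaps that of Dbp, fell less, by 0.43 (SE 0.15) and 0.49 (SE 0.12) in the authors' deposited tables. Nr1d2 fell by 1.01 (SE 0.10) in shCtrl and 1.02 (SE 0.082) in shRai1, and Per3 by 0.70 (SE 0.13) and 0.73 (SE 0.11), in the authors' deposited tables. Nr1d1 had changes of -0.16 (SE 0.24) and 0.03 (SE 0.20) in the authors' deposited tables, and neither passed. Its SE was the largest of the 10 members in all 7 deposited comparisons, and under TTX in shCtrl it exceeded that of 99.6% of the 4174 genes within a factor of 2 of its mean normalized count.

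Clock and Arntl moved little under BIC. Clock changed by 0.24 (SE 0.11, adjusted p 0.0784) in shCtrl and rose by 0.25 (SE 0.087, adjusted p 0.0103) in shRai1 in the authors' deposited tables. Averaged over both arms, which share no library, Clock rose by 0.25 (SE 0.070, adjusted p 0.00137, Wald test). Arntl had an average change of 0.12 (SE 0.055, adjusted p 0.0735), and Cry2 one of -0.02 (SE 0.070, adjusted p 0.885), by the same Wald test. After centring on the median gene Arntl passed in the average (0.16, adjusted p 0.0105) and in shRai1 (0.16, adjusted p 0.0378), and Clock passed in shCtrl (0.28, adjusted p 0.0323).

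Setting BIC directly against TTX removes vehicle from the comparison. The SE of this difference is an upper bound, so its test can miss calls. In shCtrl 8 of 10 members were called (32.4% of genes), 4 higher (17.1%) and 4 lower (15.3%) under BIC. In shRai1 9 of 10 were called (39.5% of genes), 5 higher (20.3%) and 4 lower (19.3%). Those 5 include Cry2, whose direction is uncertain. The span was largest for Dbp, which was 6.09-fold lower under BIC than under TTX in shCtrl (log2 difference -2.61, SE at most 0.26) and 7.72-fold lower in shRai1 (-2.95, SE at most 0.23). Cry1 went the other way, 2.72-fold higher in shCtrl (1.44, SE at most 0.15) and 4.82-fold higher in shRai1 (2.27, SE at most 0.12). Per1 was also higher under BIC than under TTX, by 1.11 (SE at most 0.18) in shCtrl and 1.52 (SE at most 0.15) in shRai1. Per3, Nr1d1, Nr1d2 and Dbp were lower under BIC than under TTX in both arms.

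The knockdown contrast asks what the Rai1 shRNA changed within a treatment, and 2 members stood out. In vehicle 1 of 10 members was called in the authors' deposited table (0.857% of genes called, 0.126% called higher): Per2 was 1.38-fold higher in shRai1 (log2 change 0.46, SE 0.11, adjusted p 0.00600), at rank 28 of 21192 genes by p. In TTX 1 of 10 was called in the authors' deposited table (0.0283% of genes called, 0.0142% called lower): Cry1 was 1.47-fold lower in shRai1 (-0.55, SE 0.095, adjusted p 0.000128), at rank 1 of 21192. Per2 ranked 10 there in the authors' deposited table, with a change of -0.38 (SE 0.096, adjusted p 0.155) that did not pass. In BIC none was called by the authors' DESeq2 test (0.00944% of genes, 0.00472% in each direction), and 3 had an unadjusted p under 0.05, as did 2.93% of all genes. These were Per2 at 0.34 (SE 0.10, adjusted p 0.623), Cry1 at 0.27 (SE 0.095, adjusted p 1.00) and Cry2 at 0.22 (SE 0.098, adjusted p 1.00) in the authors' deposited table.

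Cry1 and Per2 had the same sequence of signs over the treatments, above shCtrl in vehicle and BIC and below it in TTX. Cry1 in vehicle had a change of 0.32 (SE 0.099, adjusted p 0.0946) in the authors' deposited table. Cry2 and Per1 had this sequence too, with smaller values that did not pass: 0.15, -0.15 and 0.22 for Cry2 and 0.02, -0.18 and 0.23 for Per1 in vehicle, TTX and BIC in the authors' deposited tables. Per3 had the reverse sequence, at -0.11, 0.05 and -0.14 in the authors' deposited tables, and so had Dbp, at -0.04, 0.00079 and -0.34 in the same order, and none of these passed. For Cry1 and Per2 the opposed signs left averages over the 3 treatments of 0.01 (SE 0.056) for Cry1 and 0.14 (SE 0.059) for Per2. None of the 10 members passed in that average (Wald test, 0.00548% of genes called), and Per2 was the only member with an unadjusted p under 0.05 (p 0.0172).

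The other 8 members gave no call in any of the 3 knockdown tables. For Clock the 95% interval of the log2 change ran from -0.26 to 0.13 in vehicle, from -0.24 to 0.10 in TTX and from -0.24 to 0.14 in BIC, computed from the authors' deposited tables. Its mean over the treatments was -0.06, with an interval from -0.17 to 0.04, or 0.889 to 1.03 as a fold. Arntl had the narrowest errors, and its average was -0.02 with an interval from -0.11 to 0.06. For 6 of these members the intervals stayed within 0.46 of 0 in every treatment. Nr1d1 and Dbp were measured less precisely, and the interval of Dbp in BIC reached -0.77 in the authors' deposited table.

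**Figure D3:**
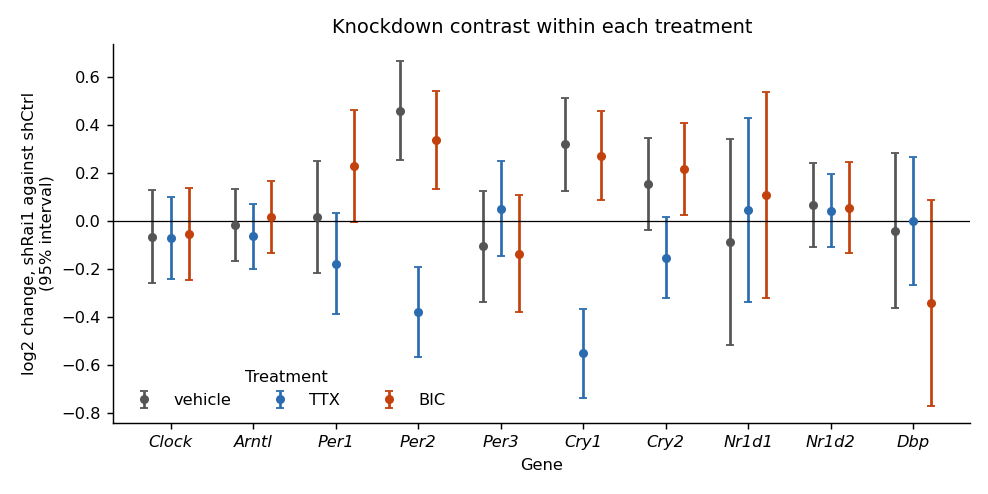
The log2 change of shRai1 against shCtrl within vehicle, TTX and BIC for the 10 clock genes, with 95% intervals from the deposited errors. The TTX points of Cry1 (-0.55) and Per2 (-0.38) lie below 0 and their vehicle and BIC points above it, while every interval of Clock, Arntl and Nr1d2 spans 0.

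Whether the response to silencing itself differed between the arms was tested as the TTX change in shRai1 minus that in shCtrl. Of the 10 members 2 passed (0.943% of 18241 genes called, 0.587% called above 0 and 0.356% below). The fall of Cry1 was deeper in shRai1 by a log2 difference of -0.87 (SE 0.14, 95% interval -1.14 to -0.60, adjusted p 9.70e-07, Wald test), and that of Per2 by -0.84 (SE 0.14, -1.12 to -0.56, adjusted p 1.04e-05). Each difference is the knockdown change in TTX minus that in vehicle, which were -0.55 and 0.32 for Cry1 and -0.38 and 0.46 for Per2 in the authors' deposited tables. Cry2 had a difference of -0.31 (SE 0.13, adjusted p 0.377) that did not pass, and Per1 one of -0.20 (SE 0.16, adjusted p 0.833). The other members lay between -0.05 and 0.16. With BIC in place of vehicle, an alternative chosen after seeing the data, 33 of 18241 genes were called by Wald test. The differences were -0.82 (SE 0.13, adjusted p 3.58e-06) for Cry1 and -0.72 (SE 0.14, adjusted p 0.000743) for Per2. Both forms use the same knockdown changes in TTX, so their likeness is partly built in. In that comparison Per1 had -0.41 (SE 0.16, adjusted p 0.622) and Cry2 -0.37 (SE 0.13, adjusted p 0.459), and neither passed.

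The response to BIC did not differ detectably between the arms for any member. None of the 10 passed the Wald test (0.0219% of genes called), and none had an unadjusted p under 0.05. For Cry1 the difference was -0.05 with a 95% interval from -0.32 to 0.22, and for Per2 -0.12 with an interval from -0.41 to 0.17. The interval of Dbp was wider, from -0.84 to 0.24.

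Oligodendrocyte-lineage markers also moved with the shRNA arm, with signs opposite to those of Cry1 and Per2. Of 8 markers, 4 were lower and 0 higher in shRai1 in vehicle (median -0.76; 0.730% of genes were lower). In TTX 1 was higher (median 0.44, 0.0142% of genes higher) and in BIC 1 was lower (median -0.41, 0.00472% of genes lower). The TTX response of 6 was higher in shRai1 (median difference 1.13, 0.587% of genes higher). For neurons 1 of 8 markers was higher in vehicle (0.126% of genes higher), where the median of the list was -0.21. The TTX response of 1 neuron marker was lower in shRai1 (0.356% of genes lower). For astrocytes 1 of 8 was lower in vehicle (0.730% of genes lower), where all 8 values were below 0 (median -0.26). Of these, 5 had an unadjusted p under 0.05, as did 7.75% of all genes. In the TTX difference none of the 8 astrocyte markers passed by Wald test, 3 had an unadjusted p under 0.05 and 7 were above 0 (median 0.22). No microglia marker passed in these 4 contrasts, but only 2 of the 8 had an adjusted p in vehicle and 7 in the TTX difference. Their part in the changes of Cry1 and Per2 was not tested.

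**Figure D4:**
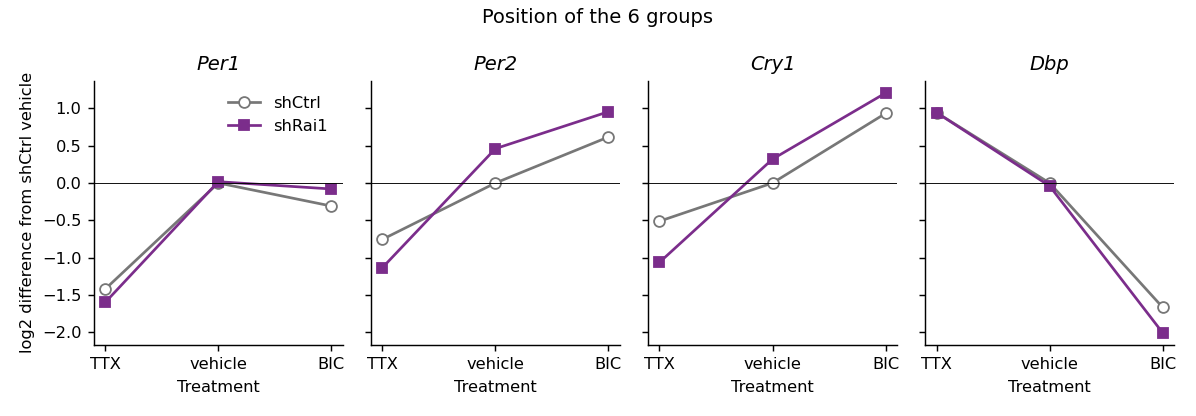
Each group's log2 difference from shCtrl vehicle for Per1, Per2, Cry1 and Dbp, with open circles for shCtrl and filled squares for shRai1. The values are deposited log2 changes or sums of them and are drawn without error bars. In TTX the shRai1 value lies at -1.13 for Per2 and -1.06 for Cry1, below the shCtrl values of -0.76 and -0.51, and in vehicle it lies above shCtrl at 0.46 and 0.32.

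The pattern of Cry1 over the 5 differences from shCtrl vehicle was compared with that of 12332 other genes whose mean normalized count reached 50. The 3 genes at the smallest Euclidean distance were Mitf (0.34), Rgs10 (0.44) and Grik1 (0.44), and Per2 was nearest among the clock genes, at rank 8 (0.50). The values that chose these genes include those that make up the TTX difference between the arms, so it is given as a description: -0.42 (SE 0.18) for Mitf, -0.35 (SE 0.17) for Rgs10 and -0.14 (SE 0.27) for Grik1. Dbp was among the most distant, at rank 12306.

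A list of 23 other clock-pathway genes, with paralogues, further nuclear receptors, D-box factors, kinases and ubiquitin ligases, was read alongside. Averaged over arms, 10 of 23 were called under TTX (33.1% of genes), 5 higher (15.5%) and 5 lower (17.5%), with a median of 0.05 against 0.0088 over all genes tested. Under BIC 18 of 23 were called (46.0% of genes), 9 higher (22.4%) and 9 lower (23.6%), with a median of -0.14 against -0.0032 over all genes tested. The authors' DESeq2 test called 0 of 23 in each knockdown comparison (0.857%, 0.0283% and 0.00944% of genes in vehicle, TTX and BIC), though only 21 of the 23 had an adjusted p in vehicle. An unadjusted p under 0.05 was found for 4, 3 and 4 of them, beside 7.75%, 3.3% and 2.93% of all genes.

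The factors that bind the D-box moved in opposed directions. Nfil3, a repressor at that sequence, had the largest response of the 23 genes to each drug, -1.61 (SE 0.079, adjusted p 1.01e-89) under TTX and 1.53 (SE 0.080, adjusted p 2.12e-78) under BIC by Wald test. Tef and Hlf encode activators of the same family as Dbp, and like Dbp they moved the other way from Nfil3. Tef rose by 0.75 (SE 0.063) under TTX and fell by 0.87 (SE 0.070) under BIC. Hlf rose by 0.43 (SE 0.068) under TTX and fell by 1.12 (SE 0.078) under BIC. Hlf was also the 1 gene of 23 whose TTX response differed between the arms (0.943% of genes called, 0.356% below 0), by -0.53 (SE 0.14, adjusted p 0.0187, Wald test), with a rise of 0.70 (SE 0.10) in shCtrl and a change of 0.17 (SE 0.090, adjusted p 0.149) in shRai1 in the authors' deposited tables. Its difference was lost at a threshold of 0.01. Ciart, a repressor of the heterodimer named after its values were seen, had a larger difference that did not pass (-0.77, SE 0.23, adjusted p 0.0745, Wald test).

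Outside the D-box factors, Usp2, a deubiquitinase, fell by 0.93 (SE 0.072) under TTX and rose by 0.42 (SE 0.076) under BIC. Rorb, an activator at ROR elements, rose by 1.31 (SE 0.14) under BIC, and its TTX change of -0.24 (SE 0.13) did not pass. Rora, a paralogue of Rorb named after its values were seen, went the other way, with a rise of 0.41 (SE 0.066) under TTX and a fall of 0.98 (SE 0.071) under BIC.

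**Figure D5:**
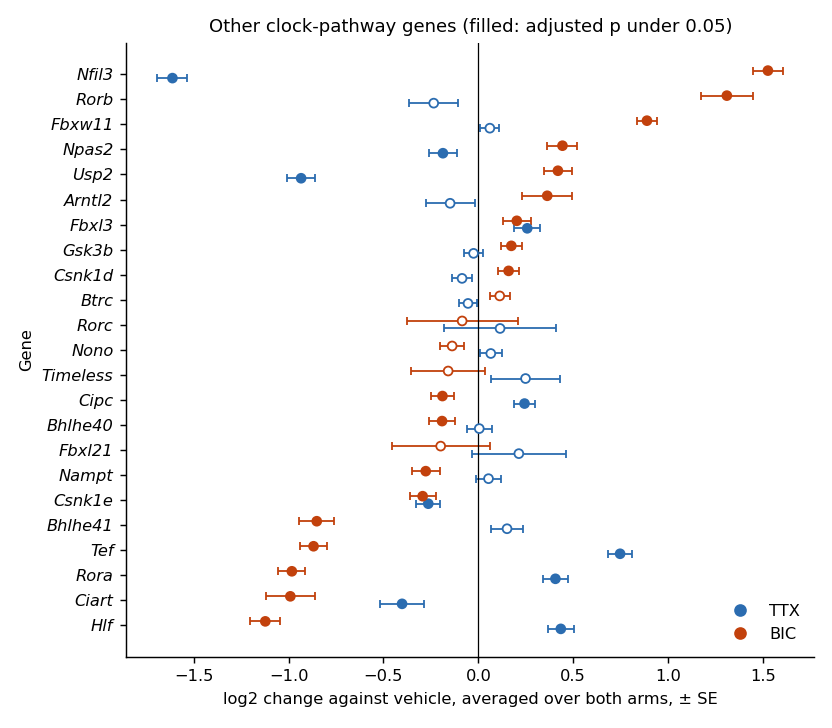
The log2 change against vehicle, averaged over both arms, of 23 other clock-pathway genes under TTX and BIC, with bars of 1 SE and filled points for an adjusted p under 0.05. Nfil3 lies at -1.61 under TTX and 1.53 under BIC, while Tef and Hlf lie above 0 under TTX and below 0 under BIC.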

How the data were processed

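Per the submitters' processing notes, reads were handled with TopHat2 2.1.0, Bowtie2 2.2.6 and DESeq2 on mm9. Whether counting used strand is not given in the sources used here. The authors deposited 1 pooled FPKM per condition with bounds, per the file headers. The mean normalized count is a signal averaged over libraries by the authors, and the Wald score is the deposited log2 change over its SE. The vehicle knockdown table has no gene names, so its rows were named by unique mean counts (20107 of 21192 tested genes, all 10 members). With another table's names hidden, 20107 of 20107 were recovered. Calls have an adjusted p under 0.05.

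Differences between arms, averages over arms or treatments and BIC minus TTX were derived here with Python 3.11.15 and scipy 1.17.1. The inputs were deposited log2 changes. The SE was the root of summed squared SEs, divided by the number averaged where averaged, with a two-sided Wald test and Benjamini-Hochberg adjustment over the 18241 genes whose mean FPKM over the 6 conditions reached 0.1. On simulated data with 200 changed genes in 18241, 88.0% to 100% were recovered in the 7 combined contrasts, and none gave more than 17 false calls. The changed genes were set to move 2-fold and had a mean normalized count of at least 50. Smaller changes, such as the arm differences of Cry1, Per2 and Hlf, were not simulated. The noise was drawn from the same SEs that the test uses, so the false calls do not check those SEs. Alternatives were thresholds, filters, the genes adjusted over and centring. P-values rest on 2 or 3 biological replicates per group, per the labels.

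Named genes were the members, Rai1, genes whose interval overlaps a member's and the 3 nearest patterns to the member with the smallest knockdown p. Of the other clock-pathway genes, those called in a knockdown or arm difference and the 3 largest responses per drug were named. The members and lists (other clock-pathway genes, neurons, astrocytes, oligodendrocyte lineage, microglia) were chosen with earlier results of these data known.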

Additional observations from a re-analysis of the deposited data

Results flagged for a closer look

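The TTX response of Cry1 differed between the arms by -0.87 (shRai1 minus shCtrl) and that of Per2 by -0.84, each by a test of the difference itself. Hlf differed by -0.53 by the same test. The shCtrl vehicle group behind these differences held 2 libraries. All 3 differences also rest on the treatment names that the comparison tables give for shRai1.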

How the results depend on the processing

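No paired analysis was possible because the files give no value per library, and for the same reason leaving out replicates was not run. At a threshold of 0.1, 2 members in place of 1 were called for the knockdown in vehicle (Per2 and Cry1), and 2 other clock-pathway genes for the TTX difference between arms, against 0 at 0.01. The counts of members called in the other comparisons stayed within 1.5 times under each alternative run. Of 870 member values recomputed, 847 kept sign and call, 8 lost a call and 9 gained one. Another 6 changed sign, none of them called. After centring on the median gene Clock became 0.0054 and 0.00048 under TTX in shCtrl and shRai1, 0.0022 averaged over arms and 0.0022 in the TTX difference between arms, and Cry2 became 0.026 under BIC averaged over arms. With BIC in place of vehicle the TTX difference of Nr1d1 became -0.063. The depth per library is unknown.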
